A study of Mus musculus with 12 samples.

Results

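The mouse mitochondrial genome carries 37 genes, of which 13 encode proteins, 2 encode rRNAs and 22 encode tRNAs. They were taken as all genes placed on chromosome MT in the deposited count tables, which list 55487 genes. RNA-seq was done in 2 experiments on cells of C57BL/6 mice whose labelled age was 8 weeks, the age that the methods give for the surgery. In the first, bone marrow macrophages (BMMs) from mice without ovaries (ovariectomized, OVX), a model of the bone loss that follows estrogen deficiency, were compared with BMMs from sham-operated mice, with 3 libraries in each group. In the second, mesenchymal stem cells (MSCs), the marrow cells that can form bone, were cultured alone (MSC), with RAW cells (MSC+RAW) or with RAW cells stimulated with lipopolysaccharide (MSC+RAW-LPS), with 2 libraries in each group. RAW is the macrophage line RAW264.7, and lipopolysaccharide (LPS) is a bacterial product that activates macrophages. The labels do not say how RAW cells were kept out of the MSC libraries. Nothing in the labels says that libraries of a group came from separate animals or cultures, so the p-values measure the spread between these libraries, which may be technical.

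Mitochondria keep a small circular genome of their own, transcribed on both strands by a dedicated RNA polymerase into long precursors that are cut at the tRNAs into separate RNAs. The proteins are all subunits of the respiratory chain and ATP synthase, and work together with many more subunits made from nuclear genes. Macrophages shift between respiration and glycolysis as they are activated, and MSCs rely more on respiration as they become bone-forming cells, so the transcripts of this genome are a common readout of mitochondrial state in both cell types.

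The cutting at tRNAs leaves almost no spacer between genes, which bears on what can be counted. The sequences of 4 tRNA genes are shown because they are the ones on which the tRNA counts turn, read from the GENCODE M21 transcripts (GRCm38) 5′ to 3′, with the anticodon in capitals.
mt-Tp: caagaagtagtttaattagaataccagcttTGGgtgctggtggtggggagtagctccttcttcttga
mt-Tc: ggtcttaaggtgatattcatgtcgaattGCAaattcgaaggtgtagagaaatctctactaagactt
mt-Tn: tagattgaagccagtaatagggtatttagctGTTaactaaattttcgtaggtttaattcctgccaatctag
mt-Tt: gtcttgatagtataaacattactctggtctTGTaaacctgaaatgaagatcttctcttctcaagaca
The proline tRNA mt-Tp lies at MT:15356-15422 on the minus strand, the cysteine tRNA mt-Tc at MT:5192-5257 and the asparagine tRNA mt-Tn at MT:5089-5159 on the same strand, and the threonine tRNA mt-Tt at MT:15289-15355 on the plus strand.

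In 3 protein genes the cut leaves a message that ends in the first base of a stop codon, which the poly(A) tail then completes. Their last 30 bases are shown with that base in capitals, because the tail is also what the poly(A) selection of these libraries captured.
mt-Co3: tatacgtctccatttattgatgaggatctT
mt-Nd4: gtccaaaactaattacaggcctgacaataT
mt-Cytb: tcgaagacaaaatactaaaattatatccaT
These ends lie at MT:9361-9390, MT:11515-11544 and MT:15259-15288, all on the plus strand. The annotated lengths of 784, 1378 and 1144 bases are each 1 base past a multiple of 3, and the other 10 protein genes end in a complete stop codon.

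Part of this genome also exists as copies in nuclear chromosomes, and a read that fits both places cannot be assigned to either. A stretch of mt-Co1, the catalytic subunit of complex IV, is set beside its copies Gm29216 on chromosome 1 and Gm13340 on chromosome 2, with differing bases in capitals.
mt-Co1: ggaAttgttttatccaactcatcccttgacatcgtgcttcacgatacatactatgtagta
Gm29216: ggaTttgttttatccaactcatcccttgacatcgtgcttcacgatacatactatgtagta
Gm13340: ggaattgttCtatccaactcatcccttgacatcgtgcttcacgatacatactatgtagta
The stretch covers MT:6390-6449, 1:24616129-24616188 on the minus strand and 2:22588526-22588585 on the minus strand. Counted from the first base of mt-Co1, Gm29216 differs from it by A1066T alone over 483 aligned bases, and Gm13340 differs at 37 of 1545.

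The libraries held 17012923 to 45367105 counts. Sham replicates 2 and 3, and the 2 MSC+RAW libraries, were nearly the same, and each pair was counted as 1 sample. The chi-square of their counts was 2.5 to 3.09 times in sham, and 3.07 to 3.56 times in MSC+RAW, what sampling alone gives, from low to high counts, whereas it reached 44.8 to 353.1 times at high counts in every other pair within a group. Single genes still differed, such as mt-Tp with 86 and 23 counts in MSC+RAW. Sham therefore had n = 2 and MSC+RAW n = 1 in means, SDs and tests, and the lone MSC+RAW sample was assumed to vary like the other groups. All 15 macrophage markers were at 1 CPM (counts scaled to a common library size) or more in every group, and their summed level was 45700 to 49600 CPM in OVX, 63200 to 68100 CPM in sham, 29700 to 29800 CPM in MSC, 40300 to 40700 CPM in MSC+RAW and 15600 to 16500 CPM in MSC+RAW-LPS. The lysozyme gene Lyz2 made up most of the sum in every library. The 15 stromal markers summed to 7580 to 8380 CPM in the BMM libraries and to 2900 to 3070 CPM in MSC, 2680 to 2700 CPM in MSC+RAW and 4280 to 4320 CPM in MSC+RAW-LPS. Of the surface markers on this list, Thy1 lay between 0.24 and 2.16 CPM in the MSC experiment and Lepr between 0.763 and 2.19 CPM. Others were higher there, with Ly6a at 116 to 526 CPM, Eng at 61.7 to 131 CPM and Nt5e at 6.77 to 54.9 CPM. The Y-linked gene Ddx3y stood at 58.3 and 66.3 CPM in MSC, 34.3 and 35.3 CPM in MSC+RAW and 56 and 50.8 CPM in MSC+RAW-LPS, and Xist at 0 to 0.66 CPM in these libraries, whereas the BMM libraries had no Ddx3y and 96.3 to 220 CPM of Xist. RAW264.7 is a male line, the methods name female mice, and the labels give no sex for the MSCs. Thus RNA of MSCs and of macrophages cannot be told apart in the MSC libraries, those cultured alone included.

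The 37 genes took 1.72, 1.1 and 1.05% of the counts in OVX replicates 1 to 3 and 1.12, 0.769 and 0.769% in sham replicates 1 to 3. They took 0.533 and 0.692% in MSC, 0.165 and 0.16% in MSC+RAW, and 0.746 and 0.655% in MSC+RAW-LPS. MSC+RAW was thus the group with the lowest share, and OVX and sham overlapped. The 95% Wilson interval of a share was at most 0.0093 percentage points wide, covering counting error only. The mean share was 1.29% ± 0.373 (SD, n = 3) in OVX, 0.945% ± 0.248 (SD, n = 2) in sham, 0.613% ± 0.112 (SD, n = 2) in MSC, 0.163% (n = 1) in MSC+RAW and 0.701% ± 0.0643 (SD, n = 2) in MSC+RAW-LPS. In bulk RNA, fewer cells of a type and less RNA per cell cannot be told apart. Since RNA was selected by poly(A), these shares are not the shares of mitochondrial RNA in the cells.

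The 13 protein genes together stood at 7380, 5500 and 4810 CPM in OVX, all above the 4540, 2270 and 2240 CPM of sham. The 2 rRNA genes stood at 8300, 4800 and 4750 CPM in OVX and at 7840, 5990 and 6000 CPM in sham, which overlapped. In the MSC experiment the protein genes stood at 2840 and 4170 CPM in MSC, 1390 and 1330 CPM in MSC+RAW, and 4050 and 4190 CPM in MSC+RAW-LPS. MSC and MSC+RAW-LPS overlapped for the protein genes and not for the rRNA genes. The rRNA genes stood at 1850 and 1890 CPM in MSC, 445 and 434 CPM in MSC+RAW, and 3470 and 2720 CPM in MSC+RAW-LPS.

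The ratio of protein-gene to rRNA counts does not depend on how libraries are scaled to each other. It was 0.89, 1.15 and 1.01 in OVX and 0.58, 0.378 and 0.374 in sham. The lowest OVX library was above the highest sham library, as it also was over mt-Nd1, mt-Nd2, mt-Nd5, mt-Nd6 and mt-Cytb, the protein genes left without mt-Atp8, mt-Atp6, mt-Nd4l, mt-Nd4 and those with a near-identical nuclear copy, where the ratio was 0.433 to 0.583 in OVX and 0.186 to 0.265 in sham. In the MSC experiment the ratio was 1.53 and 2.21 in MSC, 3.12 and 3.06 in MSC+RAW, and 1.17 and 1.54 in MSC+RAW-LPS. The MSC+RAW libraries, with the fewest mitochondrial counts, had the fewest rRNA counts for each protein-gene count. Cytosolic rRNA genes, whose RNA poly(A) selection is meant to remove, took 1.65, 2.26 and 2.22% of the counts in OVX and 2.51, 5.13 and 5.14% in sham. They took 4.62 and 3.93% in MSC, 1.89 and 1.87% in MSC+RAW, and 7.68 and 5.41% in MSC+RAW-LPS. In both experiments the groups with more cytosolic rRNA thus had the lower ratio, and the part of poly(A) selection in the ratio and in the mitochondrial rRNA levels was not tested. The sum over classes was not tested, because the genes were chosen with results of these data known.

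**Figure D1:**
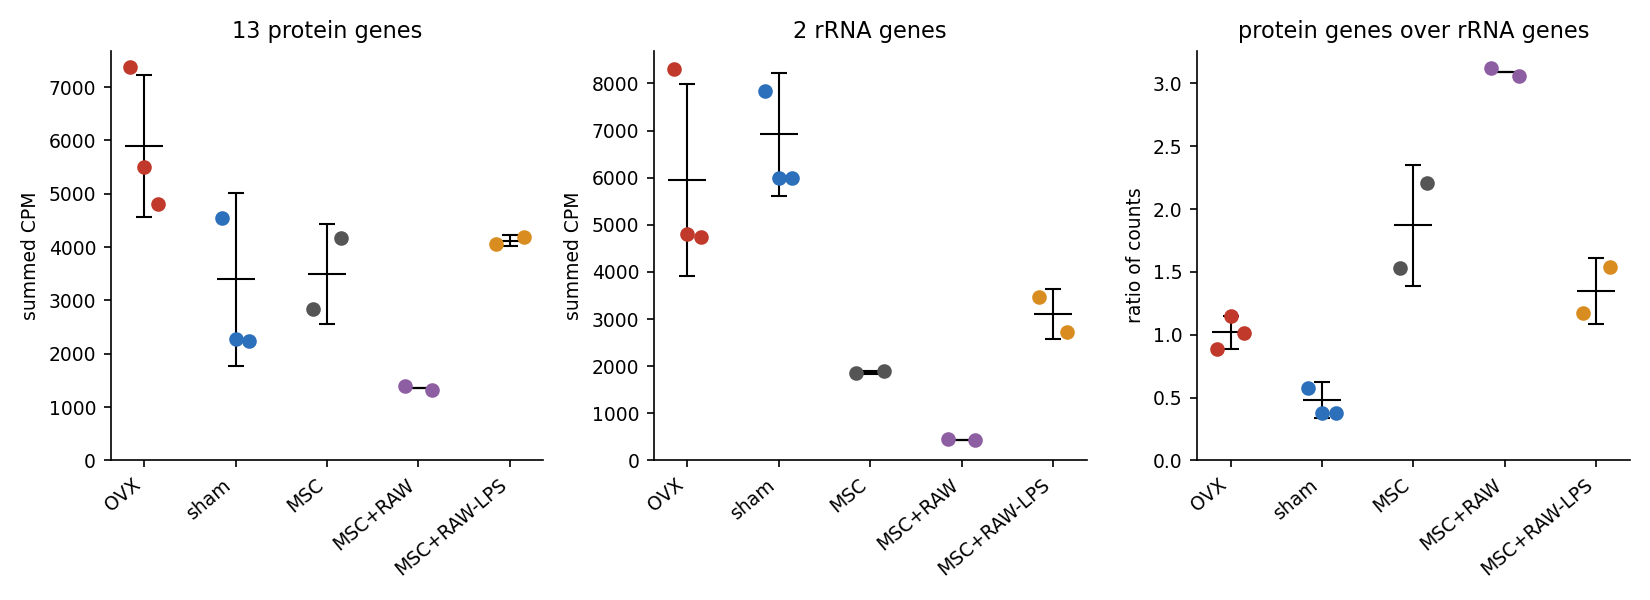
Summed CPM of the 13 protein genes (left) and the 2 rRNA genes (middle), and the ratio of the former to the latter (right), for each library by group; points are libraries, and horizontal lines with bars are the mean ± SD with sham replicates 2 and 3 counted as 1 sample (no SD for MSC+RAW, n = 1). The protein genes are higher in all OVX than in all sham libraries, the rRNA genes overlap between these groups, and MSC+RAW is lowest in both classes and highest in the ratio.

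Levels per kb of gene length, which allow genes to be compared, spanned 3 orders of magnitude over the protein genes. In the mean of the 6 BMM libraries the 16S rRNA mt-Rnr2 (MT:1094-2675) stood at 2980 CPM per kb and the 12S rRNA mt-Rnr1 (MT:70-1024), the RNA of the small ribosomal subunit, at 1630 CPM per kb. Of the protein genes, mt-Co1 (MT:5328-6872) had 1090 CPM per kb, the complex I subunit mt-Nd1 (MT:2751-3707) 718, cytochrome b of complex III, mt-Cytb (MT:14145-15288), 641, and the complex I subunit mt-Nd6 (MT:13552-14070) 574. mt-Nd6 is the only protein gene on the minus strand. The other complex IV subunits were far below mt-Co1, with 99.9 CPM per kb for mt-Co2 (MT:7013-7696) and 81.5 for mt-Co3 (MT:8607-9390). The ATP synthase subunits had 62.4 CPM per kb for mt-Atp6 (MT:7927-8607) and 1.12 for mt-Atp8 (MT:7766-7969).

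The remaining complex I subunits had 306 CPM per kb for mt-Nd4 (MT:10167-11544), 242 for mt-Nd2 (MT:3914-4951), 113 for mt-Nd5 (MT:11742-13565), 18.2 for mt-Nd3 (MT:9459-9806) and 1.81 for mt-Nd4l (MT:9877-10173). The lowest values thus belonged to genes that were short, overlapped a neighbour or had a near-identical copy. mt-Atp8 overlaps mt-Atp6, mt-Nd4l overlaps mt-Nd4, and each pair is made from 1 shared message, so the count of 1 gene of a pair does not measure that message. In no library did mt-Atp8 exceed 14 counts or mt-Nd4l 50 counts. In the MSC libraries the range over protein genes was 0.57 CPM per kb for mt-Atp8 to 746 for mt-Co1, and mt-Atp6, at 151, was higher than in the BMM libraries.

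Copies of at least 99% identity were found for 7 of the 13 protein genes, all on chromosome 1 between 24611535 and 24616197. They are Gm29216 (last part of mt-Co1), Gm28661 (mt-Co2), Gm10925 (mt-Atp6), Gm28437 (mt-Co3), Gm28438 (mt-Nd3), Gm10222 (mt-Nd4l) and Gm28439 (first 876 bases of mt-Nd4), and 5 of them were identical over all aligned bases. The median level of the 7 genes was 81.5 CPM per kb in the BMM libraries and 49 in the MSC libraries. The 6 genes without such a copy had medians of 408 and 182 CPM per kb. The 7 copies together held 6248 counts in OVX replicate 1 and 526 in MSC+RAW library a, beside 124610 and 31782 counts on the 7 mitochondrial genes. In sham replicate 3 they held 2090 beside 23355. Single genes differed widely. Gm28661 held 2253 counts beside 4195 on mt-Co2 in OVX replicate 1, but 1190 beside 522 in sham replicate 3. Gm28438 held 95 beside 61 on mt-Nd3 in MSC replicate 1, whereas Gm28439 held 28 beside 28478 on mt-Nd4 in OVX replicate 1. How reads that fit both were handled is not stated, so levels of these 7 genes are uncertain, and the part of the copies in the low values was not tested.

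**Figure D2:**
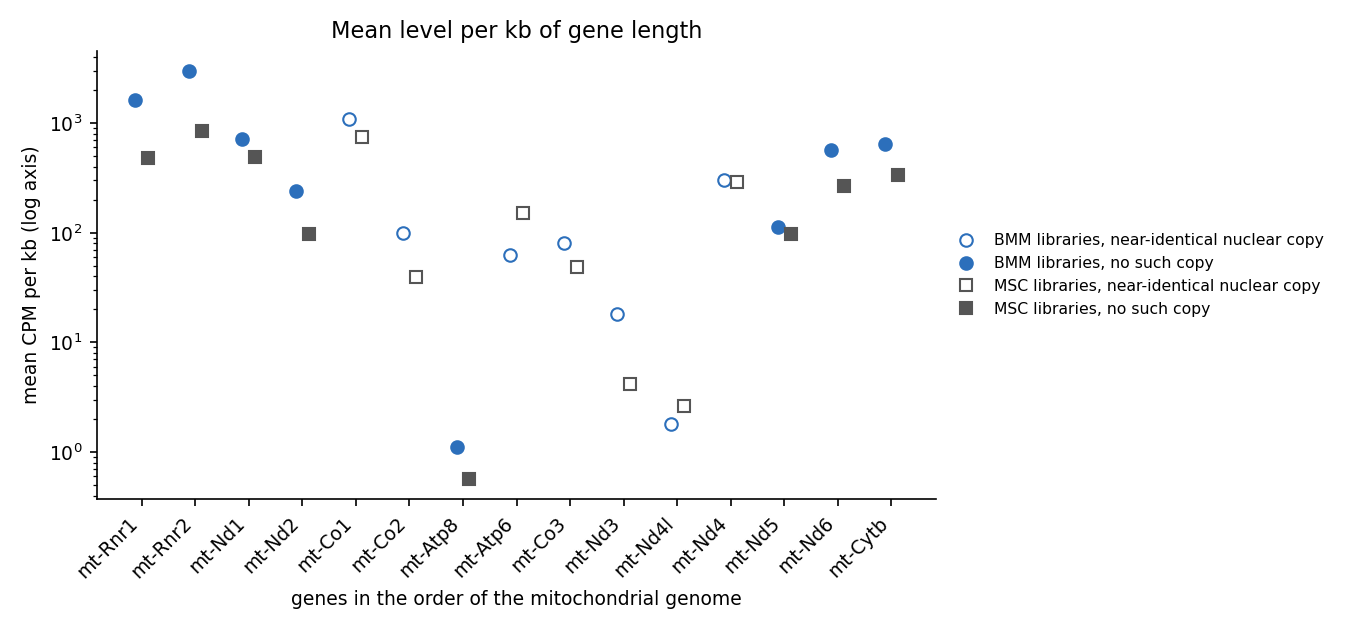
Mean CPM per kb of gene length (log axis) of the 2 rRNA and 13 protein genes in genome order, over the 6 BMM libraries (circles) and the 6 MSC libraries (squares); open symbols are genes with a nuclear copy of at least 99% identity. The genes from mt-Co2 to mt-Nd4l, all with such a copy except mt-Atp8, lie below mt-Co1 and mt-Nd4, the genes on either side, in both sets of libraries.

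The tRNA genes held few counts. The 14 on the plus strand had at most 4 counts in any library and 15 over all 12 libraries, and 8 of them had none. In the smallest library a count of 0 allows up to 0.19 CPM, taking 3 counts as the limit. The 8 on the minus strand held 4305 counts, led by mt-Tp with up to 791. mt-Tp stood at 24.1, 15 and 8.78 CPM in OVX and 14.8, 14.8 and 16.1 CPM in sham, whereas its plus-strand neighbour mt-Tt, printed above, had 1 count in all. mt-Tn and mt-Tc, at 0.591 to 2.54 CPM in the BMM libraries, were the only others tested there. No gene follows mt-Tp in the annotation, 32 bases separate mt-Tn from mt-Tc, and no other gap beside a tRNA gene was longer than 5 bases. On the circular genome the plus-strand mt-Tf (MT:1-68) borders the same stretch as mt-Tp, and it had 4 counts in 1 library and none in the others.

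Elsewhere in the genome, 201 genes lay entirely within exons of an opposite-strand gene that had at least 1000 counts, and 0 of the 201 had any count. Counting without strand gives this result, since reads in such overlaps then go to neither gene. Whether the 201 genes were expressed was not tested, and the strand setting is not stated. Reads from a mitochondrial gene and from the opposite strand thus probably cannot be told apart, for mt-Nd6 and the tRNAs among others.

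The comparison of OVX with sham asks how the loss of ovaries changes the transcriptome of macrophages. Of the 18 mitochondrial genes with enough counts to be tested, mt-Atp6, mt-Nd5 and mt-Cytb rose in OVX and none fell, at an adjusted p of at most 0.05 by edgeR (8 rose and none fell by DESeq2), and 9 had an unadjusted p under 0.05. Over all 16768 genes tested, 7.25% were called higher and 5.83% lower. All 13 protein genes lay above 0, with log2 fold changes of 0.45 to 2.37 and a median of 1.01, against a median of -0.01 over all genes. In 10 of the 13 every OVX library was above every sham library, as in 21.5% of all genes tested. Of the 15 macrophage markers 12 were lower and 1, Ptprc, higher in every OVX library, and 5 neutrophil and progenitor markers summed to 1050 to 1150 CPM in OVX and 676 to 814 CPM in sham, nearly all of it S100a8 and S100a9. Of these 5, Ly6g too was higher in every OVX library, Elane overlapped, and Mpo was lower, at 3.68, 6.51 and 7.07 CPM in OVX and 8.22, 12.9 and 15.6 CPM in sham. The part of cell make-up in the result was not tested.

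mt-Atp6, the proton channel subunit of ATP synthase, stood at 76, 51.1 and 59 CPM in OVX and at 27, 22.3 and 19.4 CPM in sham. All OVX libraries were above all sham libraries, with a log2 fold change of 1.37 ± 0.24 (SE) and an adjusted p of 0.0113 (edgeR). mt-Cytb stood at 1290, 1100 and 797 CPM in OVX and at 583, 315 and 309 CPM in sham. It did not overlap either, with 1.25 ± 0.31 and an adjusted p of 0.0376 (edgeR). mt-Nd5, one of the proton-pumping subunits of complex I, stood at 298, 226 and 306 CPM in OVX and at 163, 126 and 120 CPM in sham. Its log2 fold change was 0.95 ± 0.22, with an adjusted p of 0.0297 (edgeR).

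The other complex I genes did not pass the test. mt-Nd4l had 23, 25 and 47 counts in OVX and 9, 3 and 1 in sham, a log2 fold change of 2.37 ± 0.66 with an adjusted p of 0.0514 (edgeR). mt-Nd3 had 1.42 and mt-Nd4 1.23, with adjusted p-values of 0.057 and 0.0573 (edgeR), and the libraries of the groups did not overlap in these 3 genes. mt-Nd2 had 0.76, mt-Nd6 0.93 and mt-Nd1 0.45. Of complex IV, mt-Co3 had 1.28, mt-Co2 1.01 and mt-Co1 0.57, with adjusted p-values of 0.0977, 0.161 and 0.285 (edgeR). mt-Co1 stood at 2570, 1920 and 1880 CPM in OVX and at 1980, 862 and 872 CPM in sham, so that sham replicate 1 lay within the range of OVX. mt-Atp8, with 1 to 14 counts per library, had 0.62 ± 0.86.

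The rRNA genes were not called. mt-Rnr1 stood at 1960, 1250 and 1420 CPM in OVX and at 1680, 1540 and 1510 CPM in sham, a log2 fold change of -0.06 ± 0.22. mt-Rnr2 stood at 6340, 3550 and 3340 CPM in OVX and at 6150, 4450 and 4490 CPM in sham, a log2 fold change of -0.27 ± 0.30. The groups overlapped in both. Of the tRNA genes, mt-Tc had -0.86, mt-Tn -0.05 and mt-Tp 0.06, none of them called. 

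All protein and rRNA genes of this genome have a low GC content, 31.9 to 41.1% over their transcripts, and the libraries differed in how counts depended on GC. The rank correlation (Spearman's rho) of GC content with the level in a library relative to the mean of the experiment, taken over 16733 nuclear genes, was -0.607, -0.427 and -0.333 in OVX and 0.223, 0.523 and 0.531 in sham, as a description over genes that share a library. The 1706 nuclear genes within the GC range of the mitochondrial genes had a median log2 fold change of 0.82, of which 29.1% were called higher, and the genes above that range had -0.07. Single nuclear genes within the GC range ran from -0.12 to 1.77 at the 10th and 90th percentile, and the 13 mitochondrial protein genes had a median of 1.01. Because a median over a list varies less than single genes, these values do not show whether the genes behave alike.

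With a smooth trend on GC content and on gene length removed from each library, the median of the protein genes became 0.15, and none of them was called by edgeR, 1 having an unadjusted p under 0.05. mt-Atp6 then had 0.35, mt-Cytb 0.46 and mt-Nd5 0.04, and 6 of the 18 genes tested, none of them called as counted, changed sign. Instead 3 genes were called lower, mt-Rnr1 with -1.10, mt-Rnr2 with -1.35 and mt-Tc with -1.93, against 4.24% of all genes. The distance between protein and rRNA genes remained in both fits, with the rRNA median at -0.17 as counted and at -1.22 after removal. GC dependence and ovariectomy cannot be told apart in these libraries, since every OVX library had one sign and every sham library the other. In the tests as counted, 1 gene was called without OVX replicate 1, 1 without OVX replicate 2 and 10 without sham replicate 1, all of them higher in OVX. The call of mt-Nd5 was lost without OVX replicate 1 (0.89), 2 (1.08) or 3 (0.87), and that of mt-Cytb without OVX replicate 1 (1.08) or 2 (1.23), whereas mt-Atp6 was called without any 1 library.

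**Figure D3:**
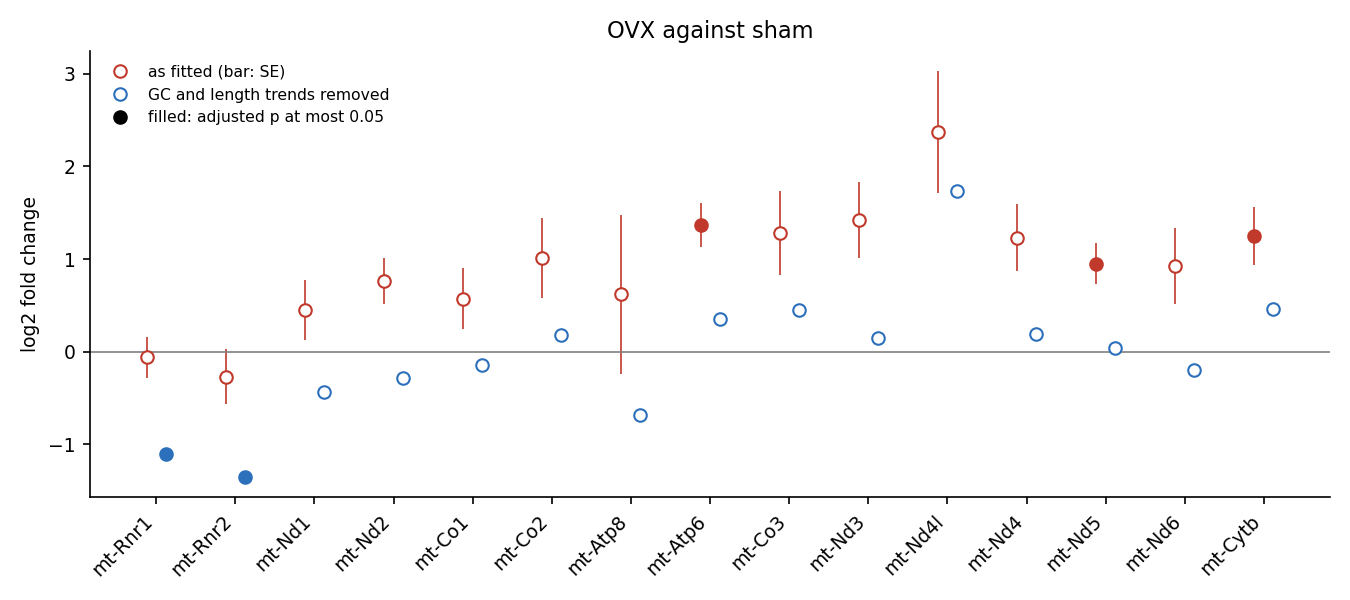
Log2 fold change of OVX against sham for the rRNA and protein genes in genome order, as counted (red, bars are SE) and after removal of trends on GC content and gene length (blue); filled points have an adjusted p of at most 0.05 (edgeR). As counted the protein genes lie above 0 and the rRNA genes near 0, and after removal the protein genes lie on either side of 0 and both rRNA genes below -1.

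The comparison of MSC+RAW with MSC asks what co-culture with unstimulated macrophages changes. Of 17 mitochondrial genes tested, 9 fell and none rose by edgeR, and the same numbers were called by DESeq2, with 14 at an unadjusted p under 0.05 in edgeR. Over all 20499 genes tested, 13.8% were called higher and 14.8% lower. The 9 were both rRNAs, 6 protein genes and mt-Tp, and every MSC+RAW library was below every MSC library in 15 of the 17, as in 44% of all genes. The median over the 17 was -1.15, against -0.13 over all genes.

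mt-Rnr1 stood at 414 and 558 CPM in MSC and at 71.9 and 71.7 CPM in MSC+RAW, a log2 fold change of -2.73 ± 0.24 with an adjusted p of 5.79e-05 (edgeR). mt-Rnr2 stood at 1440 and 1330 CPM in MSC and at 373 and 362 CPM in MSC+RAW, with -1.88 ± 0.24 and an adjusted p of 0.0002 (edgeR). The MSC and MSC+RAW libraries did not overlap in either rRNA. The cytosolic rRNA genes also took a lower share in MSC+RAW, as given above. Of complex I, mt-Nd1 went from 493 and 716 to 186 and 175 CPM, a log2 fold change of -1.71 ± 0.24. mt-Nd4 (-1.15), mt-Nd5 (-1.12) and mt-Nd6 (-1.03) also fell, with adjusted p-values of 0.00369, 0.00554 and 0.00211 (edgeR). The call of mt-Nd5 was lost without MSC replicate 2 (-0.71). mt-Nd4l (-2.03), mt-Nd2 (-0.93) and mt-Nd3 (-0.48) did not pass the test. Without MSC replicate 2 these were -1.18, -0.16 and 0.10, and without MSC replicate 1 mt-Nd2 was called, at -1.43.

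In complex IV, mt-Co1 went from 1170 and 1500 to 426 and 422 CPM, with -1.62 ± 0.23. mt-Co3 went from 39.9 and 74.6 to 22.3 and 21.8 CPM, with -1.34 ± 0.29, and mt-Co2 (-0.69, adjusted p = 0.0766, edgeR) did not pass. The MSC+RAW libraries differed in mt-Co2, at 12.2 and 29.3 CPM against 31 and 35 CPM in MSC, and its log2 fold change was -0.17 without library a and -1.44 without library b, where it was called. mt-Cytb stood at 242 and 429 CPM in MSC and at 194 and 179 CPM in MSC+RAW, with -0.82 ± 0.34 and an adjusted p of 0.0811 (edgeR). mt-Atp6, at 81.8 and 225 CPM in MSC and 74.4 and 69.6 CPM in MSC+RAW, had -1.06 ± 0.40 and an adjusted p of 0.0563 (edgeR). In mt-Atp6, MSC replicate 1 lay close to the MSC+RAW libraries and MSC replicate 2 far above them. Without MSC replicate 1, mt-Atp6 (-1.62) and mt-Cytb (-1.17) were called, and without replicate 2 they were at -0.16 and -0.35. mt-Co3 kept its call without replicate 2, at -0.83. mt-Atp8 had 5 and 11 counts in MSC and 0 in both MSC+RAW libraries, and no fold is given. Of the tRNA genes mt-Tp fell by 1.78 on the log2 scale, from 2.63 and 7.58 CPM to 2.1 and 0.664 CPM. That call was lost without MSC replicate 2 (-0.84) and without MSC+RAW library b (-1.27), and the value without library a was -2.93. mt-Te, the glutamate tRNA, had 0 and 5 counts in MSC and 5 and 9 in MSC+RAW.

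Spearman's rho with GC content was -0.237 and -0.312 in MSC and 0.403 and 0.401 in MSC+RAW. The 2144 nuclear genes in the mitochondrial GC range had a median of -0.86, and 32.7% of them were called lower. With the trends removed, 4 genes were called lower, mt-Rnr1 (-1.48), mt-Rnr2 (-0.71), mt-Co1 (-0.79) and mt-Nd1 (-0.61), against 8.11% of all genes. The median of the 17 became -0.09, and 7 of them changed sign, of which mt-Nd4 and mt-Nd6, called as counted, turned to 0.06 and 0.37. mt-Tp was no longer called, at -0.55. Of the 15 macrophage markers 9 were higher and 5, Ptprc, Mertk, Itgam, Adgre1 and Cd14, lower in both MSC+RAW libraries than in both MSC libraries. Lyz2, which led the sum, stood at 26600 and 26300 CPM in MSC+RAW and 21600 and 21700 CPM in MSC, and of the stromal markers 4 were higher and 10 lower in MSC+RAW. The part of both lists in the result was not tested.

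The comparison of MSC+RAW-LPS with MSC shares the MSC libraries with the one before. Of the 17 genes tested, mt-Rnr1, mt-Rnr2 and mt-Cytb rose and mt-Co3 fell, where 11.1% of all genes were called higher and 9.85% lower. mt-Rnr1 stood at 762 and 886 CPM with LPS-stimulated RAW cells, a log2 fold change of 0.76 ± 0.17 against MSC with an adjusted p of 0.00423 (edgeR). mt-Rnr2 stood at 2700 and 1840 CPM, with 0.71 ± 0.18 and an adjusted p of 0.00961 (edgeR). Neither rRNA overlapped with MSC. mt-Cytb, at 437 and 815 CPM, had 0.90 ± 0.27 and an adjusted p of 0.0243 (edgeR), and mt-Co3, at 36.6 and 35.2 CPM, had -0.67 ± 0.22 and an adjusted p of 0.0451 (edgeR).

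The other protein genes lay on both sides of 0. mt-Nd5 had 0.58, mt-Nd2 0.58, mt-Co1 0.35, mt-Nd1 0.07 and mt-Nd6 0.02, while mt-Nd4 had -0.36, mt-Co2 -0.33, mt-Nd3 -0.66 and mt-Atp6 -0.90 (adjusted p = 0.053, edgeR). The median over the 13 protein genes was 0.02. Without MSC replicate 1 mt-Atp6 was at -1.45 and called, mt-Nd2 at 0.08 and mt-Nd5 at 0.26, whereas without replicate 2 mt-Atp6 was at 0.01, and mt-Nd2 (1.36) and mt-Nd5 (0.99) were called. Spearman's rho with GC content was -0.283 and -0.146 in MSC+RAW-LPS, of the same sign as in MSC, and removal of the trends moved the rRNA genes to 0.82 and 0.75 and mt-Cytb to 0.93, and mt-Nd5, at 0.63, was then called too (adjusted p = 0.0373, edgeR). None of the 4 changes reached a fold of 2. Without MSC replicate 1 the calls were 2, both lower, and mt-Rnr1 (0.56), mt-Rnr2 (0.77) and mt-Cytb (0.55) were not called. The calls of mt-Rnr2 (0.66) and mt-Co3 (-0.15) were lost without MSC replicate 2, and those of mt-Cytb (0.38) and mt-Co3 (-0.64) without MSC+RAW-LPS library b. Of the macrophage markers 5 were higher and 9 lower in both MSC+RAW-LPS libraries than in both MSC libraries, and of the 15 stromal markers 9 were higher and 2 lower. The matrix gene Dcn stood at 204 and 183 CPM against 7.08 and 8.08 CPM, and Pdgfrb at 163 and 166 CPM against 161 and 157 CPM. Lower were Cxcl12, at 179 and 209 CPM against 328 and 354 CPM, and Ly6a. The part of both lists in the result was not tested.

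The comparison of MSC+RAW-LPS with MSC+RAW asks what the stimulation of the RAW cells changes, and shares libraries with both comparisons above. Of the 17 genes 10 rose and none fell by edgeR (9 and none by DESeq2), with 12 at an unadjusted p under 0.05, where 21.3% of all genes were called higher and 18.9% lower. Every MSC+RAW-LPS library was above every MSC+RAW library in 13 of the 17, as in 42.3% of all genes. mt-Rnr1 had a log2 fold change of 3.49 ± 0.25 and mt-Rnr2 of 2.60 ± 0.25, with adjusted p-values of 7.44e-08 and 1.65e-06 (edgeR). Among the genes called, they were followed by mt-Co1 (1.98 ± 0.24). It stood at 1920 and 1490 CPM with stimulated and at 426 and 422 CPM with unstimulated RAW cells.

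In complex I, mt-Nd1 (1.78), mt-Nd5 (1.70), mt-Nd2 (1.51), mt-Nd6 (1.05) and mt-Nd4 (0.79) rose, with adjusted p-values of 3.55e-05, 0.000159, 0.00465, 0.000889 and 0.0189 (edgeR). mt-Cytb (1.72, adjusted p = 0.00119, edgeR) and mt-Tp (1.72, adjusted p = 0.0264, edgeR) rose too. mt-Tp was not called without MSC+RAW library b (1.21) or without MSC+RAW-LPS library b (1.13), and its value without MSC+RAW library a was 2.86. The protein genes that did not pass were mt-Nd4l with 2.17 ± 0.90, mt-Co3 (0.67), mt-Co2 (0.37), mt-Atp6 (0.16) and mt-Nd3 (-0.18). For mt-Co2 the value was -0.15 without MSC+RAW library a and -0.11 without MSC+RAW-LPS library a, and it was called without library b of MSC+RAW (1.11) or of MSC+RAW-LPS (0.74). mt-Atp8 had 8 and 1 counts against 0 and 0.

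With the trends removed, mt-Rnr1 (2.30), mt-Rnr2 (1.46), mt-Co1 (1.13), mt-Nd5 (0.72) and mt-Nd1 (0.70) were called higher, against 17.1% of all genes, and mt-Nd3 (-1.57) was called lower, against 18.6%. In all 6 of the 17 changed sign, of which mt-Nd4 and mt-Nd6, called as counted, turned to -0.35 and -0.23, and the median of the 17 went from 1.70 to 0.61. mt-Tp was no longer called, at 0.61. The nuclear genes in the mitochondrial GC range had a median of 0.98, and 38.4% of them were called higher. The macrophage markers summed to less with stimulated RAW cells, led by Lyz2 at 9160 and 9980 CPM, but 5 of the 15, Ptprc, Fcer1g, Itgam, Adgre1 and Cd14, were higher in both MSC+RAW-LPS libraries and 9 were lower. Of the stromal markers 10 were higher and 4, Eng, Cxcl12, Thy1 and Ly6a, lower. In MSC+RAW, Dcn stood at 2.13 and 2.31 CPM and Pdgfrb at 147 and 140 CPM. The part of both lists in the result was not tested.

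**Figure D4:**
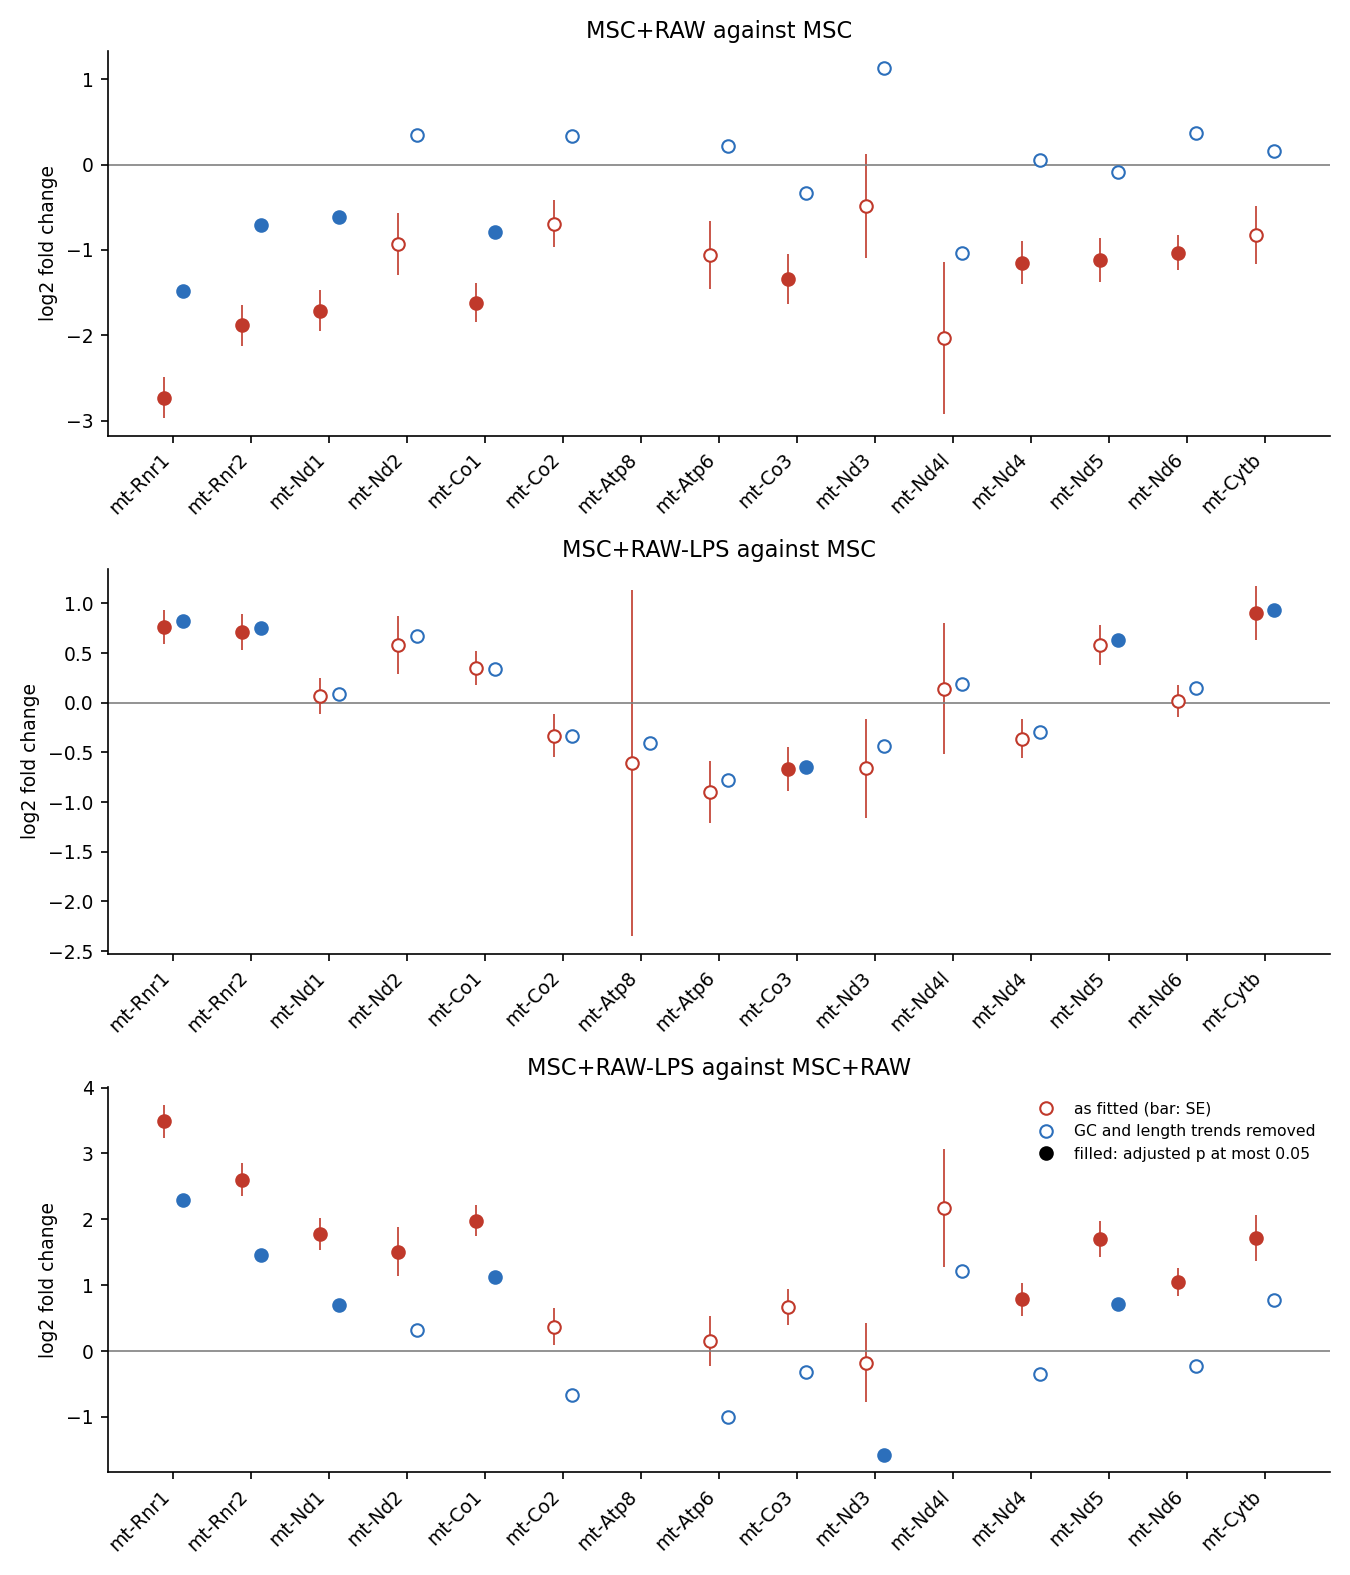
Log2 fold changes between the 3 MSC groups for the rRNA and protein genes in genome order, as counted (red, bars are SE) and after removal of trends on GC content and gene length (blue); filled points have an adjusted p of at most 0.05 (edgeR), the vertical scales differ, and mt-Atp8 is left out where MSC+RAW had 0 counts. Both rRNA genes are filled in all panels and in both fits, below 0 against MSC in MSC+RAW and above 0 in the other panels.

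The make-up of the protein-gene counts also differed between groups for some genes. mt-Co1 was the largest component everywhere, at 36.3% ± 2.38 (SD, n = 3) in OVX, 41% ± 3.62 (SD, n = 2) in sham, 38.5% ± 3.63 (SD, n = 2) in MSC, 31.3% (n = 1) in MSC+RAW and 41.4% ± 8.3 (SD, n = 2) in MSC+RAW-LPS. mt-Atp6 made up 1.06% ± 0.152 (SD, n = 3) in OVX and 0.759% ± 0.232 (SD, n = 2) in sham, but 4.14% ± 1.78 (SD, n = 2) in MSC, 5.3% (n = 1) in MSC+RAW and 2% ± 0.373 (SD, n = 2) in MSC+RAW-LPS. All MSC libraries were above all BMM libraries in this share, though the 2 experiments were prepared apart and were not tested against each other. mt-Cytb made up 17.5, 20 and 16.6% in OVX and 12.8, 13.9 and 13.8% in sham, and mt-Nd1 14.3, 14.9 and 12.9% against 17.8, 18.5 and 17.8%. The OVX and sham libraries did not overlap in these shares, mt-Cytb being higher and mt-Nd1 lower in OVX. The very low share of mt-Nd4l was also higher in every OVX library. In all other protein genes the shares overlapped, such as mt-Co1 at 34.8 to 39% in OVX and 38 to 43.6% in sham.

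Transcription of this genome and the handling of its RNA depend on nuclear genes, of which 44 had been listed and 42 were tested. In OVX against sham 2 rose and 1 fell, where 7.25% of all genes were called higher and 5.83% lower, with a median of 0.09 over the list. Gabpa, a subunit of the nuclear respiratory factor that controls many mitochondrial genes, stood at 49.1, 36.8 and 31.8 CPM in OVX and 18.3, 14.2 and 17 CPM in sham (log2 fold change 1.20, adjusted p = 0.0172, edgeR). Trmt10c, a subunit of the enzyme that cuts the 5′ ends of mitochondrial tRNAs, had 1.09, and the coactivator Ppargc1b had -1.42, with adjusted p-values of 0.0214 and 0.0393 (edgeR). The mitochondrial RNA polymerase Polrmt had -0.69, the transcription factor Tfam 0.50, the RNA-stabilizing protein Lrpprc 0.20, the poly(A) polymerase Mtpap 0.33 and the DNA polymerase Polg -0.41, none of them called. With the trends removed, none of the 42 was called by edgeR in this comparison, 5 having an unadjusted p under 0.05, and as counted DESeq2 called 4 higher and 2 lower.

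In MSC+RAW against MSC, 9 of the 42 rose and 9 fell, where 13.8% of all genes were called higher and 14.8% lower. Pnpt1, a nuclease that degrades mitochondrial RNA, had -1.60, and the termination factor genes Mterf1a and Mterf1b, which are close copies of each other, had -1.64 and -2.64. Mterf1b stood at 1.1 and 0.94 CPM in MSC and at only 0.269 and 0.0289 CPM in MSC+RAW. A further termination factor gene, Mterf2, stood at 1.31 and 1.32 CPM in MSC and had no count in MSC+RAW. In the MSC+RAW libraries 3 counts would be 0.0733 and 0.0866 CPM. Polrmt stood at 17.2 and 19 CPM in MSC and at 28 and 30.8 CPM in MSC+RAW, a rise of 0.73 with an adjusted p of 0.018 (edgeR). As counted, Polrmt was thus higher in MSC+RAW, where most of the mitochondrial genes tested were lower. With the trends removed, the median of the mitochondrial protein genes was 0.06 in this comparison, and a link with Polrmt was not tested. Tfam (0.45), Lrpprc (-0.01), Mtpap (-0.38) and Polg (0.15) were not called. After removal of the trends 9 were called higher and 4 lower, against 12.1% and 8.11% of all genes.

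In MSC+RAW-LPS against MSC, 1 of the 42 rose and 5 fell, where 11.1% of all genes were called higher and 9.85% lower. Ppargc1b (-1.27), Primpol (-1.21), a primase-polymerase of mitochondrial DNA, Fastkd2 (-0.75), an RNA-binding protein of mitochondria, and Lrpprc (-0.65) had the greatest changes among the called genes. Polrmt (-0.36), Tfam (-0.09), Mtpap (0.05) and Polg (-0.28) were not called. In MSC+RAW-LPS against MSC+RAW, 9 rose and 12 fell, where 21.3% of all genes were called higher and 18.9% lower. Mterf1b had 2.62, at 1.44 and 0.572 CPM against 0.269 and 0.0289 CPM. Pnpt1 had 1.98 and Primpol -1.76, and Mterf2 stood at 1.02 and 0.35 CPM against 0. Polrmt fell by 1.08 with an adjusted p of 0.000775 (edgeR) and Lrpprc by 0.64, whereas Tfam (-0.55), Mtpap (0.42) and Polg (-0.42) were not called. After removal of the trends 6 were called higher and 9 lower, against 17.1% and 18.6% of all genes.

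Nuclear genes for subunits of the same 4 complexes and of complex II were compared as a list of 82, of which 81 were tested. In OVX against sham none rose and 5 fell by edgeR (none and 12 by DESeq2, with 23 at an unadjusted p under 0.05 in edgeR), with a median of -0.36, beside 1.01 for the mitochondrial protein genes. Over all genes 5.83% were called lower as counted. With the trends removed 1 of the list was called lower, against 4.24% of all genes. In MSC+RAW against MSC 47 rose and 5 fell, where 13.8% of all genes were called higher and 14.8% lower, with a median of 0.88 over the list, beside -1.12 for the mitochondrial protein genes. In MSC+RAW-LPS against MSC 2 rose and 9 fell, beside 11.1% and 9.85% of all genes, so that the fallen were near the background. The median over the list was -0.09. In MSC+RAW-LPS against MSC+RAW 6 rose and 51 fell, beside 21.3% and 18.9% of all genes, with a median of -0.87 over the list and 1.51 over the mitochondrial protein genes. As counted, the nuclear and mitochondrial medians had opposite signs in all 4 comparisons, at -0.09 and 0.02 in MSC+RAW-LPS against MSC. With the trends removed the nuclear medians were -0.26, 0.77, -0.04 and -0.78, and the mitochondrial medians 0.15, 0.06, 0.09 and 0.32, so that those of MSC+RAW against MSC had the same sign.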

How the data were processed

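Poly(A) RNA of 12 libraries (6 BMM, 6 MSC) was sequenced as read pairs from a directional kit. According to the methods and the submitters' processing notes, the authors trimmed reads with Trim Galore 0.6.7, mapped them to GRCm38 with HISAT2 2.1.0 and counted them per gene with featureCounts 2.0.1. The deposited values are raw counts on 55487 genes, with replicates kept apart. The settings for strand, read pairs and reads that map to several places are not given in the sources used here.

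Genes were named by GENCODE M21, which named 55227. Counts were normalized by TMM and tested with the quasi-likelihood F-test of edgeR 4.0.16 in R 4.3.3 (filterByExpr, two-sided, Benjamini-Hochberg over all genes tested, called at an adjusted p of at most 0.05 with no fold limit). The BMM libraries were fitted apart from the 6 MSC libraries, whose 3 groups share an estimate of the spread. Near-identical libraries, found from the chi-square of each gene that had 20 counts or more summed over the pair (at most 10 times its sampling value at high counts), were summed. SE is the log2 fold change over the root of F. CPM values use TMM library sizes. The trends removed were lowess curves (span 0.3) on GC content and log2 gene length, entered as offsets. Nuclear copies were sought among GENCODE transcripts with blastn 2.17.0, at 95% identity or more over at least 100 bases. Alternatives included DESeq2 1.42.0. Scripts were tested on simulated data.

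Named were all protein and rRNA genes, the tRNA genes tested, and of the nuclear list Polrmt, Tfam, Lrpprc, Mtpap, Polg and up to 4 called genes of greatest change per comparison. The genes and lists were chosen with earlier results of these data known. The 2 MSC+RAW columns carry the same name, and the MSC+RAW-LPS columns do not carry their sample's number, so these libraries are named a and b.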

Additional observations from a re-analysis of the deposited data

How the results depend on the processing

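Of the number of mitochondrial genes called, 3 in OVX against sham became 10 without a filter on low counts, 8 with all 6 libraries as separate samples, 8 with DESeq2 and 3 with the trends removed, all lower in place of higher. Without 1 library each, the number ran from 1 to 10. In MSC+RAW against MSC, 9 became 4 with the trends removed and 7 to 13 without 1 library each. In MSC+RAW-LPS against MSC, 4 became 0 with a fold limit of 2, 7 without a filter, 2 with only the groups compared and 2 to 7 without 1 library each, both of the 2 calls without MSC replicate 1 being lower. In MSC+RAW-LPS against MSC+RAW, 10 became 6 with the trends removed and 10 to 11 without 1 library each. The causes were not tested. With the trends removed 6 of 18, 7 of 17, 1 of 17 and 6 of 17 genes changed sign in the 4 comparisons, of which those called as counted were mt-Nd4 and mt-Nd6, which went to 0.06 and 0.37 in MSC+RAW against MSC and to -0.35 and -0.23 in MSC+RAW-LPS against MSC+RAW. RLE normalization, library sizes without mitochondrial genes and halved counts left each number within 1.5 times. Over single genes, 877 values kept their direction and their side of the threshold, 41 of genes not called changed sign and stayed uncalled, 108 passed it only under the alternative and 38 passed it only in the reported fit.

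With all 6 BMM libraries as separate samples, which gave 8 calls, and the replicate number added as a block, 12 genes were called in OVX against sham. The deviations of same-numbered libraries correlated at 0.558, -0.062 and 0.588, and OVX replicate 3 also correlated at 0.581 with sham replicate 2. Because sham replicates 2 and 3 were nearly the same, these values cannot show whether the numbers pair the libraries. No paired analysis by replicate number was possible for the MSC groups because no pair of groups shares 2 numbers in the column names. Chosen after the data were seen, a code in the column names, whose meaning is not stated, used as a block with libraries kept separate, gave 8 calls in BMMs and 13, 6 and 12 in the MSC comparisons. Of the nuclear genes for mitochondrial RNA, 3 called in OVX against sham became 0 with the trends removed and 6 with DESeq2, alternatives added later.

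The mean share of counts in MSC+RAW went from 0.163% to 0.166% without cytosolic rRNA genes, 0.17% over protein-coding genes, and 0.16 to 0.165% without 1 library each, and in MSC+RAW-LPS from 0.701% to 0.774% over protein-coding genes. Over mt-Nd1, mt-Nd2, mt-Nd5, mt-Nd6 and mt-Cytb alone, the mean ratio of protein-gene to rRNA counts was 0.502 in OVX, 0.227 in sham, 0.742 in MSC, 1.32 in MSC+RAW and 0.617 in MSC+RAW-LPS, lower by construction. Counts of mt-Atp8, mt-Nd4l and the plus-strand tRNAs were too low for a precise fold, and MSC+RAW had 1 independent sample.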
